A study of Drosophila melanogaster with 12 samples.

Results

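The genes described here encode the Polycomb and Trithorax group proteins of Drosophila melanogaster and the chromatin remodellers and coactivators that work beside them. A list of 46 genes was matched by symbol to the array's annotation, and 36 of them had a probe set (a group of short probes read as 1 value) assigned to that gene alone. They had 40 such probe sets among the 18952 on the array. For the 4 genes with more than 1, the probe set with the highest mean signal stands for the gene. The measurements came from eye-antennal imaginal discs, the larval sheets of cells that form the adult eye, antenna and head, taken from wandering third-instar larvae. RNA pooled from 30 pairs of discs was hybridized to each of 12 arrays, and each of 4 genotypes had 3 arrays that the labels call biological replicates. The genotypes were the driver line ey-Gal4, the transgene line UAS-wge, the combination of both (ey>wge), and the same combination with the alleles Su(var)3-9[1] and Su(var)3-9[2] (the allele pair).

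In ey>wge the yeast activator Gal4, made under eyeless sequences that are active in the eye part of the disc, switches on winged eye (wge), which encodes a chromatin protein. The series title calls these discs transdetermined, that is, moved from one disc fate towards another. Su(var)3-9 is a histone methyltransferase of heterochromatin. The allele-pair arrays also carry ey-Gal4 and UAS-wge, so no genotype shows the alleles without wge overexpression, and no genotype lacks both transgenes.

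Polycomb group proteins keep genes silent in cells where they were silent earlier, and Trithorax group proteins keep genes active. PRC2 methylates histone H3, PRC1 compacts chromatin and ubiquitinates a nucleosomal histone, and PhoRC binds DNA elements and helps bring both complexes there. Trithorax proteins include histone methyltransferases and ATP-driven remodellers that move nucleosomes, and in imaginal discs both groups are known for holding Hox and other selector genes in their on or off state.

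The 10 listed genes with no probe set of their own were ph-p, ph-d and Su(z)2 of PRC1, pho, calypso and Kdm2, the methyltransferase ash1, the BAP subunits Bap55 and Bap111, and fs(1)h, and they are not analysed under those symbols. All 36 members passed the filter on low signals, and each lay above its array's 40th percentile on all 12 arrays. The signals were MAS5 intensities (summaries by the array maker's algorithm, with every array scaled to 1 common level). Changes are differences of mean log2(signal + 16) with the standard error (SE) of a limma model of all 12 arrays, with n = 3 arrays per genotype. A gene is said to have risen or fallen where the adjusted p over all 13817 probe sets tested was under 0.05, and values of other genes are estimates that did not pass. A signal is read against the same probe set on other arrays, since the signals of different probe sets cannot be set against each other.

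The probe set of wge itself read 776 to 951 on the 6 control arrays, 925 to 1162 in ey>wge and 443 to 875 in the allele pair, so ey>wge overlapped the controls. Which bases of wge the probes cover is not given in the sources used here, and Su(var)3-9 was not analysed. The summed signal of 4 wing-fate markers was 182 to 438 in the controls and 2971 to 3517 in ey>wge, where all 4 rose, and 618 to 1052 in the allele pair, where all 4 fell against ey>wge. The discs carried signal for all 12 listed eye-antennal markers. The summed signal of those markers was 29427 to 36248 on the 6 control arrays and 10241 to 13650 on the 6 arrays with wge overexpression, and 10 of 12 fell with wge. The other 2, Dll and ss, had mean signals of 1742 and 1055 in ey>wge, against 1737 and 1071 in ey-Gal4 and 1831 and 1189 in UAS-wge. Summed hemocyte (blood cell) markers, 9 of 9 measured, reached 18588 to 28324 in UAS-wge against 3486 to 6059 in the other 3 genotypes, and all 9 rose in UAS-wge against ey-Gal4. Muscle markers, 5 of 7 measured, summed to 3709 to 9526 in ey-Gal4, 1959 to 2889 in UAS-wge, 3946 to 4674 in ey>wge and 868 to 2074 in the allele pair, where all 5 fell against ey>wge. Fat body markers, 3 of 6 measured, summed to 663 on the first allele-pair array and to 60.2 to 175 on the other 11 arrays. In whole discs, fewer cells of a type and less RNA per cell cannot be told apart.

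With wge overexpression, no Polycomb, Trithorax or remodeller gene was called changed against the average of both controls. Across all probe sets tested, 2.97% were called in that comparison. At an unadjusted p under 0.05, 2 of the 36 members passed in limma, Asx and brm, against 1635 of 13817 probe sets (11.8%). The members' changes ran from -0.49 to 0.32 with a median of -0.09, and the median of all probe sets was 0.01. The SE had a median of 0.16, and the 95% interval lay within a 2-fold change in either direction for 36 of 36 members and within a 1.5-fold change for 26. Against ey-Gal4 alone, 0 of 36 were called beside 3.63% of all probe sets, and 3 members and 13.2% of probe sets passed an unadjusted p under 0.05. Against UAS-wge alone 0 of 36 were called beside 3.7% of all probe sets, and 4 members and 12.6% of probe sets passed an unadjusted p under 0.05. The ey>wge arrays lay wholly below the UAS-wge arrays in 8 of 36 members and in 11.6% of all probe sets. These controls are part of the averaged comparison, so the 3 counts share arrays. Counts of 1 to 3 were reached under some alternatives, with Asx and brm passing against both controls where allele-pair array 1 was left out or only the 9 arrays compared were fitted.

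With the allele pair, the members stood lower. Against ey>wge, 5 of 36 fell and none rose, namely Pcl, Jarid2, Kdm5, kis and E(bx), while 4.57% of all probe sets fell and 2.23% rose. The median of the members was -0.32 and that of all probe sets -0.08, and 13 members and 22.8% of probe sets passed an unadjusted p under 0.05. Against the average of both controls, 14 of 36 fell and none rose, while 12.7% of all probe sets fell and 8.46% rose. Quantile normalization raised the median of all probe sets by 0.11 in that comparison, moved the members' median from -0.44 to -0.29, and gave 13 falls. The 5 falls against ey>wge rest on allele-pair arrays 2 and 3: without array 1 there were 17, and without array 2 or without array 3 there were 0. With any 1 of the ey>wge arrays left out the count was 0 or 1, and fitting only the 6 arrays compared gave 0. The calls over all 13817 probe sets moved as well. In that comparison there were 939 in either direction with all arrays, and 314 to 2927 with 1 array left out.

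**Figure D1:**
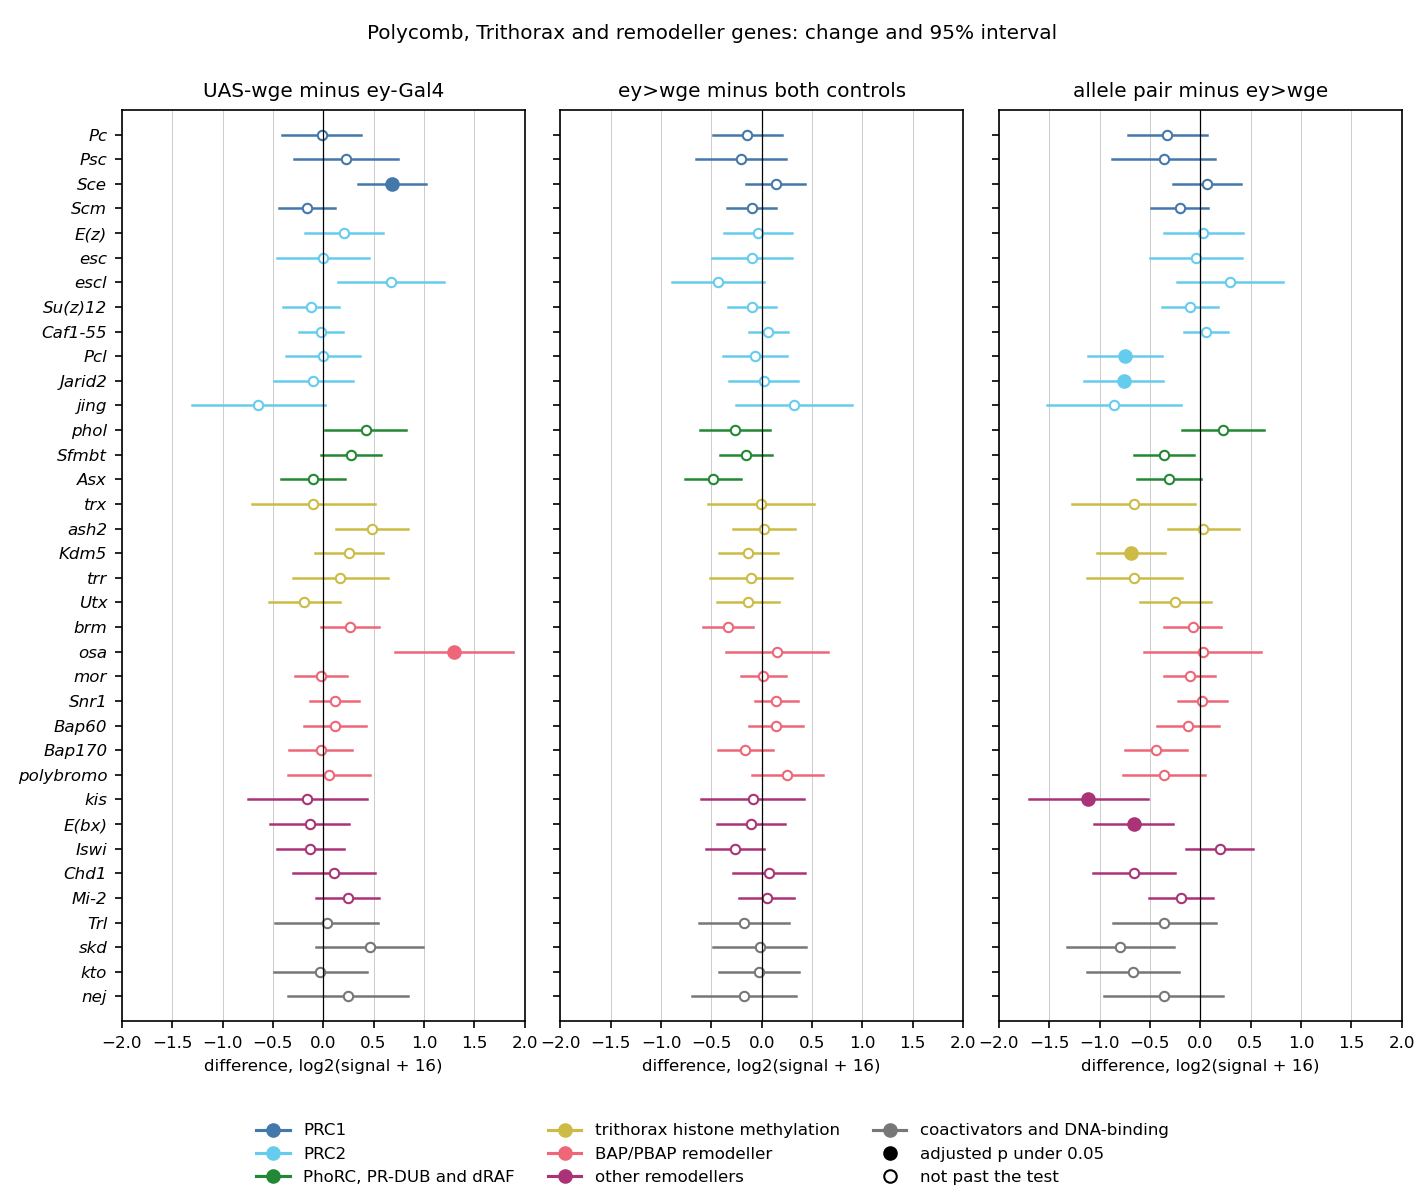
Differences of log2(signal + 16) for each of the 36 members, colored by role, for the parental lines (UAS-wge minus ey-Gal4), for wge overexpression (ey>wge minus both controls) and for the allele pair (minus ey>wge); points are model estimates from 3 arrays per genotype, bars are 95% intervals and filled points have an adjusted p under 0.05. The wge changes stay between -0.49 and 0.32 with no filled point, and the allele-pair changes reach -1.11 for kis.

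The PRC1 genes with a probe set were Pc, Psc, Sce and Scm, and 0 of 4 passed with wge or in the allele pair against ey>wge. Pc, whose chromodomain binds methylated histone H3, read 581, 592 and 647 on the ey-Gal4 arrays, 573, 593 and 636 on the UAS-wge arrays, 569.8, 612 and 463 on the ey>wge arrays and 510, 499.6 and 314 in the allele pair. All 3 allele-pair arrays lay below all 6 control arrays, and the range of ey>wge overlapped both. Pc stood at -0.14 ± 0.16 with wge (adjusted p = 0.835) and fell by 0.47 ± 0.16 in the allele pair against both controls (adjusted p = 0.047), a call that held in 6 of 22 alternative analyses.

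Psc, a RING-finger subunit that compacts nucleosomes, read 449, 441 and 442 on the ey-Gal4 arrays, 543, 523 and 503 on the UAS-wge arrays, 431, 454 and 367 on the ey>wge arrays and 553, 272 and 215 in the allele pair. The first allele-pair array was the highest of all 12 and the other 2 were the lowest. Its changes were -0.20 ± 0.21 with wge (adjusted p = 0.81) and -0.36 ± 0.24 with the allele pair against ey>wge (adjusted p = 0.409). Scm, which links PRC1 to other Polycomb complexes, stood at -0.10 ± 0.12 and -0.20 ± 0.13 in the same comparisons.

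Sce, the RING-finger ubiquitin ligase of PRC1, differed between the parental lines instead. Its signals were 535, 639 and 505 on the ey-Gal4 arrays, 942, 801 and 973 on the UAS-wge arrays, 815, 857 and 684 on the ey>wge arrays and 709.6, 824 and 934 in the allele pair. Every UAS-wge array exceeded every ey-Gal4 array, and both genotypes with wge overexpression lay above ey-Gal4 and overlapped UAS-wge. Sce rose by 0.68 ± 0.16 in UAS-wge against ey-Gal4 (adjusted p = 0.0155), and ey>wge stood 0.48 ± 0.16 from ey-Gal4 (adjusted p = 0.138). In that comparison of the parental lines 2 of 36 members rose, Sce and osa, beside 2.31% of all probe sets, and none fell, beside 2.69%. The UAS-wge arrays lay wholly above the ey-Gal4 arrays in 9 members and wholly below in 4, beside 11.5% and 11.1% of all probe sets. The 9 hemocyte markers rose in the same comparison, and their part in the 2 rises was not tested. Sce lost its call without ey-Gal4 array 1 or 3 or without UAS-wge array 1 or 3.

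Of 8 PRC2 genes measured, none changed with wge, and Pcl and Jarid2 fell with the allele pair against ey>wge. The catalytic subunit E(z) stood at -0.04 ± 0.16 with wge and 0.03 ± 0.18 with the allele pair. Su(z)12, which E(z) needs for activity, stood at -0.10 ± 0.11 and -0.11 ± 0.13, and the histone-binding Caf1-55 at 0.07 ± 0.09 and 0.06 ± 0.10. The 95% interval of the difference lay within a 2-fold change for all 3 genes in both comparisons.

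Pcl, a PHD-finger subunit that raises PRC2 activity, read 1288, 1131 and 1114 on the ey-Gal4 arrays, 1186, 1131 and 1199.6 on the UAS-wge arrays, 989, 1308 and 1084 on the ey>wge arrays and 909, 572 and 556 in the allele pair. Every allele-pair array lay below every other array. Pcl fell by 0.75 ± 0.18 against ey>wge (adjusted p = 0.0169), after a wge change of -0.07 ± 0.15 (adjusted p = 0.928). Jarid2, an accessory subunit that helps PRC2 bind chromatin, read 2356, 2414 and 2378 on the ey-Gal4 arrays, 2242, 2295 and 2145 on the UAS-wge arrays, 2199.5, 2571 and 2244 on the ey>wge arrays and 2056, 1285 and 970.4 in the allele pair. Here too the allele-pair arrays lay below all others, with the first close to the controls. Its fall against ey>wge was -0.76 ± 0.19 (adjusted p = 0.0215), and its wge change was 0.02 ± 0.16 (adjusted p = 0.985). Counting all members, 6 of 36 had allele-pair arrays wholly below the ey>wge arrays, as did 13.6% of all probe sets.

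The paralogs esc and escl encode the WD-repeat subunit of PRC2 that binds methylated histone H3. Signals of esc were 417, 712 and 642 on the ey-Gal4 arrays, 593, 499 and 637 on the UAS-wge arrays, 449, 587 and 584 on the ey>wge arrays and 389, 574 and 630.4 in the allele pair. All 4 genotypes overlapped. Signals of escl were 372, 242 and 197 on the ey-Gal4 arrays, 421, 541 and 341 on the UAS-wge arrays, 238, 288 and 211 on the ey>wge arrays and 238, 296 and 394 in the allele pair. All ey>wge arrays lay below the UAS-wge arrays and within the ey-Gal4 range, a difference of -0.77 ± 0.25 from UAS-wge (adjusted p = 0.12) that did not pass. Against both controls esc stood at -0.10 ± 0.19 and escl at -0.43 ± 0.22 (adjusted p = 0.456), and in the allele pair escl had the largest positive change of the PRC2 genes, 0.30 ± 0.25 (adjusted p = 0.533).

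The zinc-finger gene jing, a homolog of the mammalian PRC2 cofactor AEBP2, had the largest positive wge change among all members. It read 229, 219 and 207 on the ey-Gal4 arrays, 146, 188 and 85.8 on the UAS-wge arrays, 187, 276 and 201 on the ey>wge arrays and 204, 87.3 and 79.1 in the allele pair. The ey>wge arrays overlapped both controls, and allele-pair arrays 2 and 3 lay below all ey>wge arrays while the first lay among them. Its changes were 0.32 ± 0.27 with wge (adjusted p = 0.751) and -0.86 ± 0.32 with the allele pair (adjusted p = 0.108). A dimmer probe set of jing differed in sign in both comparisons, with changes of -0.59 ± 0.39 and 0.22 ± 0.45.

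Among the DNA-binding and deubiquitinase complexes, phol, Sfmbt and Asx were measured, and 0 of 3 passed with wge or with the allele pair against ey>wge. Asx, the subunit that activates the Polycomb deubiquitinase PR-DUB, came nearest to a call with wge. It read 1728, 1629 and 1329 on the ey-Gal4 arrays, 1578, 1475 and 1309 on the UAS-wge arrays, 912, 1230.4 and 1083 on the ey>wge arrays and 948, 827 and 807 in the allele pair. All 3 ey>wge arrays lay below all 6 control arrays, which held for 2 of 36 members (Asx and brm) and 4.44% of all probe sets. The change was -0.49 ± 0.13 (adjusted p = 0.0543), a level 28.6% lower, and over 21 alternative analyses the adjusted p ran from 0.0130 to 0.351 and passed in 6. Asx was also low with the allele pair: it fell by 0.79 ± 0.13 against both controls (adjusted p = 0.000375), passed in 22 of 22 alternatives, and differed from ey>wge by -0.31 ± 0.15 (adjusted p = 0.235). Of the eye-antennal markers, 10 of 12 fell with wge and 10 of 12 with the allele pair against both controls, and their part in this result was not tested. The deubiquitinase itself is annotated by the symbol caly, for which Calypso is a RefSeq synonym. That probe set, found after the list was matched and not counted among the members, stood at -0.27 ± 0.15 with wge (adjusted p = 0.539) and at -0.40 ± 0.15 in the allele pair against both controls (adjusted p = 0.0697).

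The zinc-finger protein encoded by phol binds the same DNA motif as that of its paralog pho, and phol read 1056, 1077 and 1078 on the ey-Gal4 arrays, 1369, 1839 and 1184 on the UAS-wge arrays, 871, 1049 and 1200 on the ey>wge arrays and 1339.9, 1485 and 891 in the allele pair. All UAS-wge arrays exceeded all ey-Gal4 arrays, and the ranges of both wge genotypes spanned the gap. Its change was -0.26 ± 0.17 with wge (adjusted p = 0.612) and 0.23 ± 0.19 with the allele pair (adjusted p = 0.533). Sfmbt, the partner of Pho in PhoRC, read 2852, 2269 and 2122 on the ey-Gal4 arrays, 2893, 2963 and 2856 on the UAS-wge arrays, 2326, 2486 and 2270 on the ey>wge arrays and 2234, 1752 and 1577 in the allele pair. The allele-pair arrays lay below all ey>wge arrays and below all UAS-wge arrays. Sfmbt stood at -0.16 ± 0.12 with wge and at -0.36 ± 0.14 against ey>wge (adjusted p = 0.138), and fell by 0.52 ± 0.12 in the allele pair against both controls (adjusted p = 0.00592).

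**Figure D2:**
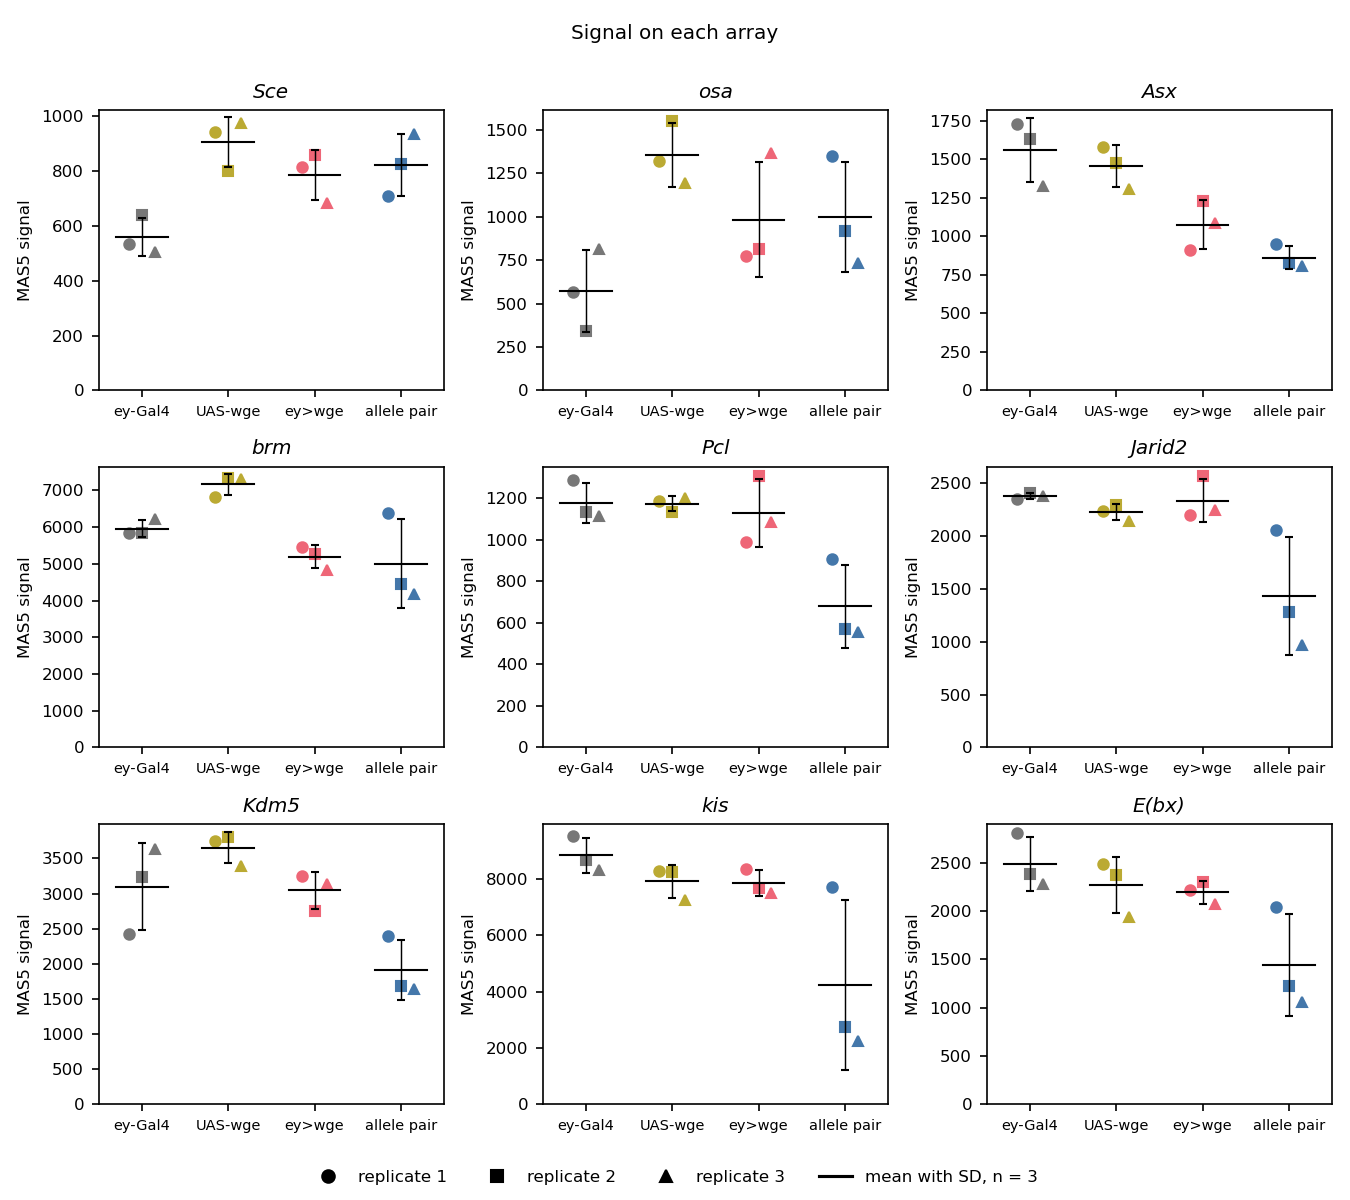
MAS5 signal (linear axis from 0) on each of the 12 arrays for 9 members, with 1 marker shape per replicate number, and each genotype's mean and SD as black bars (n = 3). The ey>wge points of Asx and brm lie below all control points, and replicates 2 and 3 of the allele pair lie far below replicate 1 for kis.

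Of the histone methylation genes of the Trithorax group, trx, ash2, trr, Utx and Kdm5 were measured. None of the 5 changed with wge, and Kdm5 fell with the allele pair against ey>wge. Kdm5 (also called lid), a demethylase of trimethylated histone H3 that genetics places in the Trithorax group, read 2421, 3231 and 3633 on the ey-Gal4 arrays, 3740.5, 3809 and 3396 on the UAS-wge arrays, 3256, 2753 and 3138 on the ey>wge arrays and 2400.1, 1682 and 1648 in the allele pair. The allele-pair arrays lay below all others, the first by a narrow margin. Its fall was -0.69 ± 0.16 (adjusted p = 0.017), and its change with wge -0.13 ± 0.14 (adjusted p = 0.817).

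The methyltransferase gene trx, which gives the group its name, read 2970.2, 3602 and 3042 on the ey-Gal4 arrays, 2492, 3885 and 2739 on the UAS-wge arrays, 2938, 3776 and 2606 on the ey>wge arrays and 3919.5, 1418 and 1309 in the allele pair. Its first allele-pair array was the highest of the 12 and the other 2 were the lowest, as for Psc. The resulting change of -0.66 ± 0.29 did not pass (adjusted p = 0.183), and the change with wge was -0.01 ± 0.25. Another methyltransferase gene, trr, acts mainly at enhancers and read 783, 748 and 869.5 on the ey-Gal4 arrays, 870.1, 956 and 872 on the UAS-wge arrays, 817, 767 and 774 on the ey>wge arrays and 775, 498 and 308 in the allele pair. Arrays 2 and 3 of the allele pair lay below every other array and array 1 lay within ey>wge. It stood at -0.66 ± 0.22 against ey>wge (adjusted p = 0.0863) and fell by 0.76 ± 0.19 against both controls (adjusted p = 0.00919), where its dimmer probe set gave -0.74 ± 0.35 (adjusted p = 0.158).

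A core subunit shared by these methyltransferase complexes is encoded by ash2, which read 1135, 1239 and 1375 on the ey-Gal4 arrays, 1531, 1619 and 2161 on the UAS-wge arrays, 1456, 1212 and 1913 on the ey>wge arrays and 1494, 1633 and 1474 in the allele pair. The UAS-wge arrays exceeded all ey-Gal4 arrays, and both wge genotypes overlapped UAS-wge. Its largest difference was 0.48 ± 0.17 between the parental lines (adjusted p = 0.136), against 0.02 ± 0.15 with wge and 0.03 ± 0.17 with the allele pair. Utx, a demethylase of the histone H3 mark made by PRC2, stood at -0.13 ± 0.15 with wge and at -0.25 ± 0.17 with the allele pair.

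The BAP and PBAP complexes are the SWI/SNF remodellers of the fly, and 0 of their 7 measured subunits changed with wge or with the allele pair against ey>wge. The ATPase gene brm read 5834, 5828 and 6218 on the ey-Gal4 arrays, 6829, 7342 and 7325 on the UAS-wge arrays, 5462, 5266 and 4846 on the ey>wge arrays and 6398, 4457 and 4172 in the allele pair. All ey>wge arrays lay below all control arrays, and the allele-pair arrays lay on both sides of the ey>wge range. The change with wge was -0.33 ± 0.12 (adjusted p = 0.201), with -0.46 ± 0.14 against UAS-wge (adjusted p = 0.0732), and it passed where only the arrays compared were fitted and where arrays were weighted by quality. Against both controls brm fell by 0.41 ± 0.12 in the allele pair (adjusted p = 0.0193).

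A signature subunit of BAP, osa, showed the largest difference between the parental lines. Its signals were 564, 339 and 813 on the ey-Gal4 arrays, 1322, 1553 and 1191 on the UAS-wge arrays, 772, 811 and 1367 on the ey>wge arrays and 1347, 917 and 732 in the allele pair. Every UAS-wge array exceeded every ey-Gal4 array, and ey>wge spanned the space between them. The rise in UAS-wge was 1.30 ± 0.28 (adjusted p = 0.00753), and the call was lost without ey-Gal4 array 2 (adjusted p = 0.0579). Against the average of both lines, ey>wge stood at 0.15 ± 0.24 (adjusted p = 0.896), while it stood 0.80 ± 0.28 from ey-Gal4 (adjusted p = 0.153) and -0.50 ± 0.28 from UAS-wge (adjusted p = 0.513). For osa the average of the controls thus lies between separate levels.

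For the PBAP subunits Bap170 and polybromo, Bap170 read 988, 931 and 988 on the ey-Gal4 arrays, 1022, 956 and 884 on the UAS-wge arrays, 837, 846 and 887 on the ey>wge arrays and 769, 571 and 564 in the allele pair. The allele-pair arrays lay below all others. It stood at -0.44 ± 0.15 against ey>wge (adjusted p = 0.0834) and fell by 0.60 ± 0.13 against both controls (adjusted p = 0.00283). Signals of polybromo were 455, 364 and 381 on the ey-Gal4 arrays, 363, 402 and 489 on the UAS-wge arrays, 487, 458 and 517 on the ey>wge arrays and 498, 334 and 319.8 in the allele pair. The ey>wge arrays exceeded all ey-Gal4 arrays and overlapped UAS-wge, and the change with wge was the largest positive one in the complex, 0.25 ± 0.17 (adjusted p = 0.645). The core subunits mor, Snr1 and Bap60 stood at 0.02 ± 0.10, 0.14 ± 0.10 and 0.14 ± 0.13 with wge.

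Among the other remodellers, kis and E(bx) fell with the allele pair against ey>wge, and 0 of 5 changed with wge. The CHD-family gene kis, identified by mutations that suppress Polycomb, read 9532, 8668 and 8309.9 on the ey-Gal4 arrays, 8263, 8255 and 7244 on the UAS-wge arrays, 8365, 7690.3 and 7516 on the ey>wge arrays and 7707, 2729 and 2256 in the allele pair. The first allele-pair array lay within the ey>wge range, and the other 2 were far below all other arrays. The fall of -1.11 ± 0.28 (adjusted p = 0.0248) averages those levels, and the change with wge was -0.09 ± 0.24 (adjusted p = 0.942). E(bx), the large subunit of the nucleosome remodelling factor NURF, read 2806, 2382 and 2278 on the ey-Gal4 arrays, 2492, 2376 and 1939.7 on the UAS-wge arrays, 2215, 2301 and 2069 on the ey>wge arrays and 2038, 1224 and 1059 in the allele pair. All allele-pair arrays lay below all ey>wge arrays, the first by a narrow margin. It fell by 0.66 ± 0.19 against ey>wge (adjusted p = 0.042), a call that held in 9 of 22 alternative analyses. The calls of Pcl, Jarid2, Kdm5 and kis in that comparison held in 16, 15, 16 and 15 of 22.

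The ATPase of NURF and related complexes, Iswi, read 3063, 2803 and 3497 on the ey-Gal4 arrays, 2628, 2731 and 3207 on the UAS-wge arrays, 2226, 2259 and 2980.4 on the ey>wge arrays and 3498, 2764 and 2325 in the allele pair. The ey>wge arrays overlapped both controls, and the first allele-pair array was marginally the highest of all 12. Its changes were -0.27 ± 0.14 with wge (adjusted p = 0.473) and 0.19 ± 0.16 with the allele pair (adjusted p = 0.517). Chd1, a remodeller found at transcribed genes, read 837, 783 and 919 on the ey-Gal4 arrays, 953, 890.4 and 893 on the UAS-wge arrays, 1007, 909 and 857 on the ey>wge arrays and 858, 531 and 426 in the allele pair. Allele-pair array 1 lay within the ey>wge range and the other 2 below all other arrays. Chd1 missed the threshold against ey>wge at -0.66 ± 0.19 (adjusted p = 0.0503) and fell by 0.59 ± 0.17 against both controls (adjusted p = 0.0188). Mi-2, the ATPase of the NuRD complex, stood at 0.05 ± 0.13 and -0.19 ± 0.15.

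The coactivators and DNA-binding factors were Trl, skd, kto and nej, and 0 of 4 changed with wge or with the allele pair against ey>wge by the probe set that stands for each. Trl, which encodes the GAGA factor, read 689, 604 and 696 on the ey-Gal4 arrays, 697, 648 and 689 on the UAS-wge arrays, 612, 672 and 498 on the ey>wge arrays and 800.3, 375 and 316 in the allele pair. Its first allele-pair array was the highest of all 12 and the other 2 were the lowest. The changes were -0.18 ± 0.21 with wge (adjusted p = 0.843) and -0.36 ± 0.24 with the allele pair (adjusted p = 0.423). The acetyltransferase gene nej, the fly CBP, stood at -0.17 ± 0.24 and -0.36 ± 0.28.

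The genes skd and kto encode the Mediator kinase-module subunits Med13 and Med12. Signals of skd were 718, 635 and 762 on the ey-Gal4 arrays, 1069, 992 and 869.6 on the UAS-wge arrays, 952, 894 and 638 on the ey>wge arrays and 688, 548 and 263 in the allele pair. Allele-pair array 3 was the lowest and array 1 lay within the ey>wge range. The change was -0.79 ± 0.25 against ey>wge (adjusted p = 0.0679), while the dimmer probe set of skd fell by 0.82 ± 0.23 (adjusted p = 0.0423), and both fell against both controls. Signals of kto were 495, 576 and 602 on the ey-Gal4 arrays, 552, 490.2 and 597 on the UAS-wge arrays, 467, 639 and 525 on the ey>wge arrays and 507, 284 and 254 in the allele pair. Arrays 2 and 3 of the allele pair lay below all others and array 1 lay among them. It stood at -0.67 ± 0.22 against ey>wge (adjusted p = 0.0734) and fell by 0.70 ± 0.19 against both controls (adjusted p = 0.0131).

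The split between allele-pair array 1 and the other 2 was seen in many members, but not in those with the shortest genes, as given below. Relative to the ey>wge mean, the median of the 36 members was -0.02 on array 1, -0.33 on array 2 and -0.55 on array 3. On array 1 none lay more than 0.5 below that mean, while 16 did on array 2 and 19 on array 3, beside 13.8%, 25.7% and 31.1% of the 10752 probe sets with a known gene span. Arrays 2 and 3 both lay below every ey>wge array in 24 of 36 members (66.7%) and in 27.7% of all probe sets. In 11 of those 24 members array 1 lay inside the ey>wge range, in 7 above it and in 6 below it. Of the 3821 such probe sets among all tested, array 1 lay inside in 1264, above in 673 and below in 1884. Median signals over all probe sets were 44.4 on array 1, 33.0 on array 2 and 34.0 on array 3, against 38.7 to 43.7 on the other 9 arrays.

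The 3 arrays can be followed in single genes. Differences from the ey>wge mean on arrays 1, 2 and 3 were -0.03, -1.52 and -1.79 for kis. They were 0.35, -1.11 and -1.22 for trx and -0.18, -0.85 and -1.25 for Jarid2. As with kis, Jarid2 and other members, all 3 values of Pcl and Asx were negative. They were -0.30, -0.95 and -0.99 for Pcl and -0.17, -0.36 and -0.40 for Asx. Array 1 of Asx lay inside the ey>wge range. With array 1 as the only allele-pair array, Pcl stood at -0.30 and kis at -0.03 against ey>wge. In that fit the lone array is assumed to vary like the other genotypes, so its calls do not measure the allele pair's own spread. Fat body markers were high on array 1 only. Summed muscle markers were 2074, 868 and 1261 on arrays 1, 2 and 3, all below ey>wge and ey-Gal4, with array 1 inside the UAS-wge range. Wing-fate markers summed to 836, 1052 and 618. Summed glia markers were 12994, 11574 and 8135 on arrays 1, 2 and 3, against 11772 to 12473 in ey>wge. Most of that sum was Gli, with mean signals of 9996 in ey>wge and 9711 in the allele pair. The means of repo, moody and loco were 205, 634 and 1179 in ey>wge and 128, 211 and 850 in the allele pair. Of the 4 glia markers, 2 fell against ey>wge. The 1 tracheal marker tested also fell in that comparison, while 0 of 4 brain and neuroblast markers and 0 of 2 salivary gland markers changed. The part of all these markers in the members' falls and in the split was not tested.

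**Figure D3:**
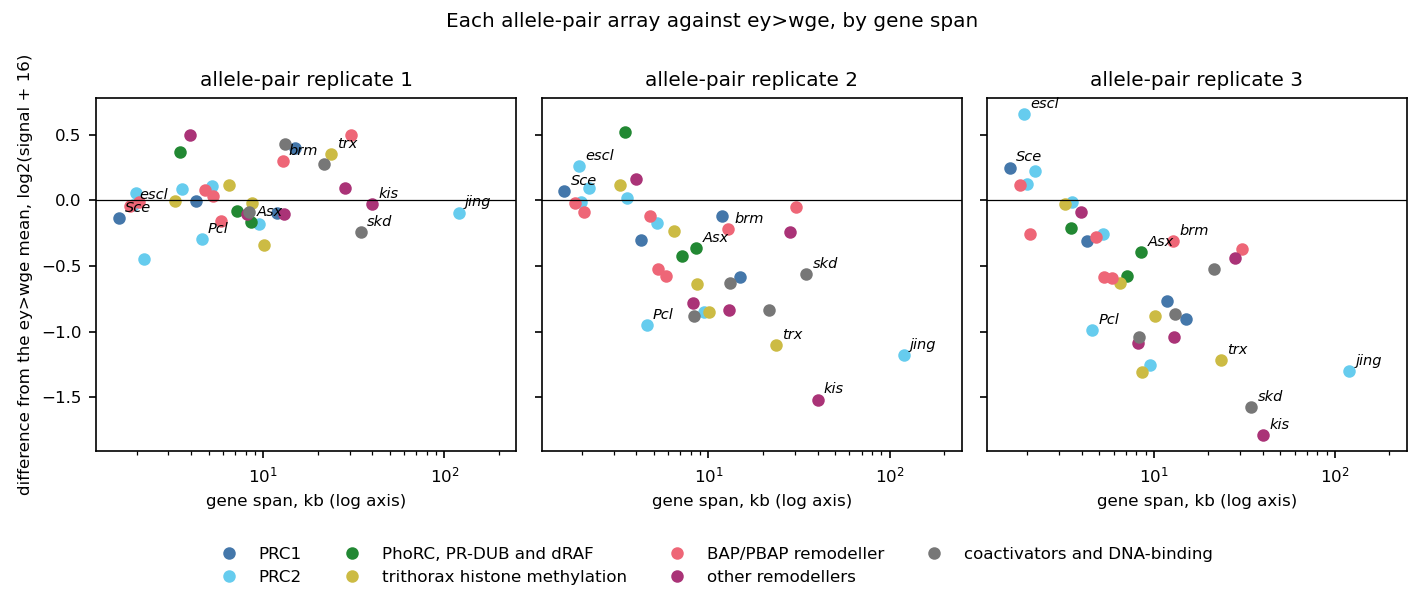
Difference of each allele-pair array from the ey>wge mean in log2(signal + 16) against gene span (kb, log axis), with 1 panel per array and 1 point per member, colored by role. Members of long span lie on both sides of 0 in replicate 1 and mostly below 0 in replicates 2 and 3, with Spearman correlations of 0.10, -0.70 and -0.78.

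Members with longer genes tended to be lower on arrays 2 and 3. Gene span, the distance from the first to the last annotated base of a gene, had a median of 7.65 kb among members (1.60 to 119.8 kb) and of 2.86 kb among all probe sets tested with a span. Across the 36 members, span and the difference from ey>wge had a Spearman correlation of 0.10 on array 1, -0.70 on array 2 and -0.78 on array 3. Across all 10752 such probe sets the values were -0.03, -0.30 and -0.40, and on the other 9 arrays they lay between -0.02 and 0.16. Points of 1 array share that array's RNA and labelling, so these correlations are descriptions. In the allele pair against ey>wge, the 6 members of at most 2.5 kb had a median change of 0.04 with 0 falls, and the 13 members over 10 kb had a median of -0.36 with 3 falls. All probe sets in those span classes had medians of 0.09 and -0.30, and 1.24% and 11.0% of them fell. The 7 members of 2.5 to 5 kb had a median of 0.03 with 1 fall and the 10 members of 5 to 10 kb a median of -0.40 with 1 fall. All probe sets of these classes had medians of -0.14 and -0.25, and 5.05% and 8.23% of them fell. On arrays 1, 2 and 3, members of at most 2.5 kb had median differences from the ey>wge mean of -0.04, 0.03 and 0.18. The medians were 0.08, 0.02 and -0.21 for members of 2.5 to 5 kb. They were -0.08, -0.55 and -0.61 for 5 to 10 kb, and 0.10, -0.63 and -0.88 over 10 kb.

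After the trend with span, fitted over all probe sets with a span, was removed from every array, 4 of the 5 falls against ey>wge remained called. Of all probe sets, 3.81% fell in that comparison after this step and 4.57% before it. The members' own rank correlations with span were larger in size on arrays 2 and 3 (-0.70 and -0.78, against -0.30 and -0.40 over all probe sets with a span). A rank correlation does not measure a slope. How much of them remained after this step was not tested. Pcl stood at -0.64 ± 0.15 (adjusted p = 0.0207), Jarid2 at -0.59 ± 0.14 (adjusted p = 0.0217), kis at -0.89 ± 0.22 (adjusted p = 0.0215) and Kdm5 at -0.51 ± 0.14 (adjusted p = 0.0364). E(bx) missed the threshold at -0.47 ± 0.14 (adjusted p = 0.0572). Against both controls 10 of 36 members and 10.1% of all probe sets fell in that analysis, where 14 members and 12.7% of probe sets fell before it.

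**Figure D4:**
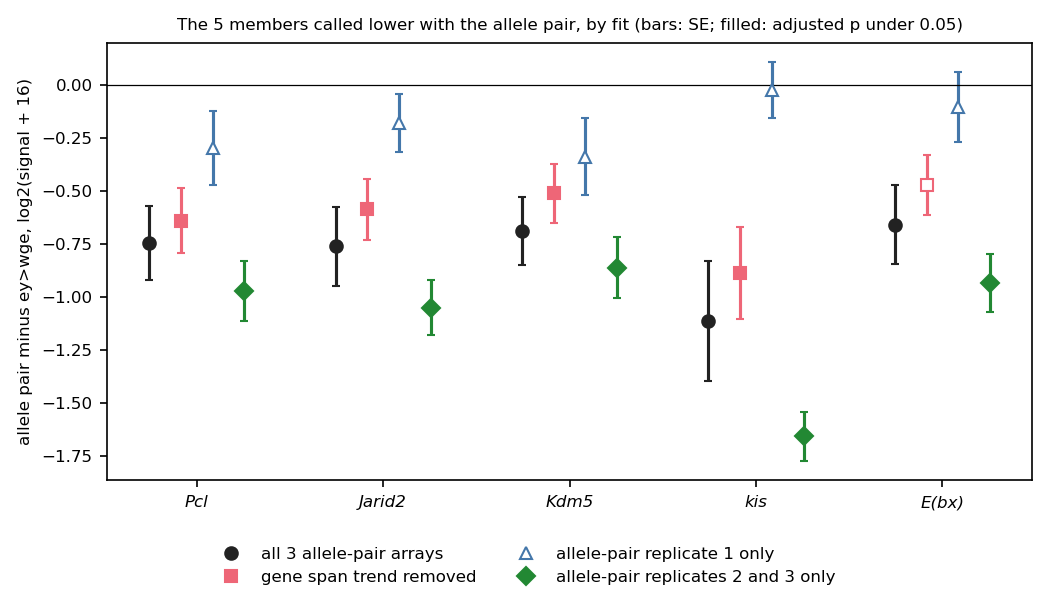
Change of the 5 called members in the allele pair against ey>wge (log2(signal + 16), bars are SE) with all 3 allele-pair arrays, with the gene span trend removed, with replicate 1 only and with replicates 2 and 3 only; filled markers have an adjusted p under 0.05. For kis the estimate is -0.03 with replicate 1 only and -1.66 with replicates 2 and 3 only.

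Other genes of the same machinery, 49 measured of 64 listed, were read in the same comparisons. Against both controls 0 of 49 changed with wge in limma, and 4 passed an unadjusted p under 0.05, beside 2.97% and 11.8% of all probe sets. Against UAS-wge alone 2 of 49 rose, beside 1.74% of all probe sets: Set8 (listed as pr-set7), a histone methyltransferase, by 1.64 ± 0.25 (adjusted p = 0.000448), and wds, a core subunit of the Trithorax methyltransferase complexes, by 0.84 ± 0.15 (adjusted p = 0.00199). Both, and the Mediator gene MED14, fell in UAS-wge against ey-Gal4 (3 of 49, beside 2.69% of all probe sets), with -2.01 ± 0.25 (adjusted p = 4.01e-05) for Set8, -0.81 ± 0.15 (adjusted p = 0.00213) for wds and -0.77 ± 0.15 (adjusted p = 0.00411) for MED14. Against ey-Gal4 alone 1 of 49 rose, beside 1.35% of all probe sets: the histone chaperone Nap1, by 0.41 ± 0.11 (adjusted p = 0.0422). In the allele pair against ey>wge 8 of 49 fell and none rose, beside 4.57% and 2.23% of all probe sets, and 4 fell with the span trend removed, beside 3.81%. The largest falls were those of lola, a BTB zinc-finger factor, at -1.19 ± 0.23 (adjusted p = 0.00524), and of Su(var)2-HP2, a partner of heterochromatin protein HP1, at -1.09 ± 0.27 (adjusted p = 0.0212).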

How the data were processed

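Per the submitters' processing notes, the authors summarised each Affymetrix array with MAS5, whose version and settings are not given in the sources used here. The deposited values are linear signal intensities of 18952 probe sets, with each array's trimmed mean (2% left out at each end) at about 500. Per the labels, 100 ng of RNA per array was amplified in 2 rounds. The number of arrays limits the precision.

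Values were analysed as log2(signal + 16). Probe sets above their array's 40th percentile on at least 3 of 12 arrays were tested, without 183 controls, which left 13817. Of these, 10812 carried 1 gene symbol, 324 several and 2681 none, and only the first kind was named. A model holding the 4 genotype means was fitted over all 12 arrays with limma 3.58.1 in R 4.3.3 (eBayes with trend), two-sided, with Benjamini-Hochberg adjustment over all probe sets in each of 6 contrasts, and the code was tested on simulated data. P-values measure the spread between arrays called biological replicates, as 1 spread per probe set shared by all 4 genotypes. That spread was not equal in every genotype. For kis the SD of the signals was 3020 in the allele pair and 448 to 628 in the other genotypes. P-values of the allele pair thus rest partly on the smaller spread of the other genotypes, and those with wge partly on the larger spread of the allele pair. No batch is recorded. Replicate numbers did not pair the samples.

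The members, role groups, marker lists and related genes were chosen with earlier results of these data known. Values on every array are given for members called in any contrast, for the largest rise and fall within each role, and for paralogs. The values of trx were added after they were seen. Gene spans came from RefSeq (Release 6 assembly), which gave one for 99.4% of single-symbol probe sets. The alternatives changed the pseudocount (1 or 64), the filter, the normalization, the array weights, the arrays fitted, a replicate block, the probe sets and the span trend.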

Additional observations from a re-analysis of the deposited data

How the results depend on the processing

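Alternatives for single genes were read only for members in the contrasts where they were called, and for Asx with wge against both controls. No direction was reversed among these, which were mostly chosen for a call, and directions of the other members were not followed. Of the 481 alternative values, 391 kept their side of the threshold, 84 lost a call and 6 gained one. In the 3 wge comparisons (both controls, ey-Gal4, UAS-wge) the 0 members became 2, 1 and 3 with array weights, 2, 1 and 2 with only the groups compared, and 1, 1 and 1 with the span trend removed, and leaving out 1 array in turn gave 0 to 2, 0 to 1 and 0 to 1. For the allele pair against ey>wge the 5 members became 20 with array weights, 0 with only the groups compared and 0 with allele-pair replicate 1 only, and leaving out 1 array gave 0 to 17. Against both controls the 14 became 22 with array weights and 1 with allele-pair replicate 1 only, and leaving out 1 array gave 8 to 22. The 2 members of the parental lines became 1 to 2. Same-numbered arrays did not deviate together (correlations from -0.05 to 0.08 over 18 pairs), and a fit with the replicate number as a block gave 7 and 15 members in the 2 allele-pair comparisons and left the other member counts as they were.

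Over all probe sets, array weights gave 675, 831 and 899 calls in the wge comparisons (410, 502 and 511 before), and 4409 and 6454 with the allele pair (939 and 2920 before). Fitting only the groups compared gave 722, 845 and 842, and 252 for the allele pair against ey>wge. With allele-pair replicate 1 only there were 173 and 657. Leaving out 1 array gave 250 to 625, 299 to 785, 329 to 754, 314 to 2927 and 1693 to 4211, and 457 to 966 between the parental lines (690 before). The cause of these shifts was not tested.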

Other observations

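Among the 49 related chromatin genes measured, 7 rose and 16 fell with the allele pair relative to the averaged controls, beside 8.46% and 12.7% of all probe sets. The 36 members had 14 falls and no rise. The 7 related genes that rose had spans of 1.09 to 4.46 kb, with a median of 2.12 kb. The longest of them, Set8, had a mean signal of 444 in the allele pair, 458 in ey-Gal4 and 105 in UAS-wge. Its rise against the average thus reflects the low level in UAS-wge, and its mean was not above that of ey-Gal4. The 16 that fell had spans of 2.21 to 61.4 kb, with a median of 8.30 kb, so the ranges overlapped. The 14 members that fell had spans of 4.57 to 40.1 kb, with a median of 9.07 kb. With the trend of each array with span removed, 4 related genes rose and 11 fell, beside 7.24% and 10.1% of all probe sets, and 10 members fell.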
